A study of Mus musculus with 2 samples.

Results

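Bone morphogenetic protein (BMP) ligands, modulators and target genes were followed in single liver cells as a group of 10 genes out of 31054 features in the count tables. The rule picks genes by name and by role, with no threshold on a measured value, but the group was proposed with earlier results of these data known. Its counts are therefore set beside those of all genes as a description only. It holds the ligands Bmp2, Bmp4, Bmp5 and Bmp6, the modulators Bmper and Bambi, and the target genes Id1, Id3, Smad6 and Tmem100.

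The cells came from hepatic stellate cell (HSC) preparations of male mice after 4 weeks of carbon tetrachloride (CCl4), a hepatotoxin that causes liver fibrosis, with 1 single-cell library per genotype. The p16-LRTD mice carry p16-CreERT2 and, at the R26 locus, a CAG-LSL-RSR-tdTomato-2A-DTR cassette, a reporter with the diphtheria toxin receptor behind 2 stop signals. In p16-Alb-LRTD mice, Alb-DreERT2 is added, a design meant to open the cassette in cells that express both p16, a senescence-associated cell cycle inhibitor, and the hepatocyte gene Alb. The study names leaky expression of the toxin receptor past the loxP stop signal as a possible limit of this model. Both genotypes received CCl4, tamoxifen and diphtheria toxin, so the control mice had the same agents but kept their p16-high hepatocytes. The number and age of the mice behind each library are not stated in the sources used here, and with 1 library per genotype no difference has a replicate check. All intervals are 95% and cover counting error only, not the spread between mice or preparations, and reads of 1 molecule were collapsed by unique molecular identifiers (UMIs).

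BMPs are secreted dimers of the TGF-β superfamily that bind type I and type II serine/threonine kinase receptors. The receptors phosphorylate Smad1, Smad5 and Smad9, which enter the nucleus with Smad4 and switch on genes such as Id1, Id3 and Smad6. In the liver, Bmp2 and Bmp6 from sinusoidal endothelial cells act on hepatocytes to induce hepcidin, the hormone that limits iron uptake, and stellate cells are a source of the circulating ligands BMP9, encoded by Gdf2, and BMP10.

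Cells were sorted into classes by the share of their UMIs in a few marker genes, and none of the 10 genes was among those markers. The preparations held 7852 stellate-like cells in p16-LRTD and 6621 in p16-Alb-LRTD, against 430 and 283 endothelial-like cells and 283 and 178 Kupffer-like cells (Kupffer cells are the resident macrophages of the liver). Median depth was 17025 and 18136 UMIs in stellate-like, 11781 and 11992 in endothelial-like and 19514 and 25102 in Kupffer-like cells. Markers outside the rule, such as Dcn, Clec4g and C1qa, had their highest summed level in the class they mark, although 1 of the Kupffer markers, Fcna, was higher in stellate-like cells, at 116% and 165% of its Kupffer-like level. Between 3 and 52 cells per class and library lay within 20% of a marker cut, and 95 barcode sequences occurred in both libraries. A list of 10 immediate early and heat shock genes that dissociation can induce was higher in p16-Alb-LRTD in every class, with a summed level of 6443 and 9912 CPM (UMIs scaled to a common total) in stellate-like, 3105 and 5706 CPM in endothelial-like and 3701 and 4858 CPM in Kupffer-like cells, and 10 of 10 genes higher each time. The fibrillar collagens Col1a1, Col1a2 and Col3a1 summed to 8353 CPM in stellate-like cells of p16-LRTD and 2852 CPM in those of p16-Alb-LRTD.

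On the GRCm38 build the ligand genes lie on chromosome 2 from 133552159 to 133562885 (Bmp2), chromosome 14 from 46383520 to 46390669 (Bmp4), chromosome 9 from 75775364 to 75900310 (Bmp5) and chromosome 13 from 38345107 to 38500302 (Bmp6). Bmper spans 23223076 to 23485200 and Smad6 63953076 to 64022059 on chromosome 9. Id1 lies on chromosome 2 from 152736251 to 152737410, Id3 on chromosome 4 from 136143497 to 136145755 and Tmem100 on chromosome 11 from 90030348 to 90036508. Promoter windows from RefSeq (GRCm38.p6) were taken for 6 of the 10 genes. The 250 bases before the start are shown for Smad6, the inhibitory Smad that BMP signals induce (chr9:64022060-64022309, minus strand), and for Bmper, which had the highest ratio between libraries of the members in endothelial-like cells (chr9:23222826-23223075, plus strand). Capitals mark GGAGCC on either strand, 1 of the GC-rich sequences bound by BMP-activated Smads.
Smad6: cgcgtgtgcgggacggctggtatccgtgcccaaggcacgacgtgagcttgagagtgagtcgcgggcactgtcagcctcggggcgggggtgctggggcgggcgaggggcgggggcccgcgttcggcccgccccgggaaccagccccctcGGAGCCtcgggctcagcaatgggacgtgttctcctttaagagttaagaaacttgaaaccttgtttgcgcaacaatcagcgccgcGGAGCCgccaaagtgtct
Bmper: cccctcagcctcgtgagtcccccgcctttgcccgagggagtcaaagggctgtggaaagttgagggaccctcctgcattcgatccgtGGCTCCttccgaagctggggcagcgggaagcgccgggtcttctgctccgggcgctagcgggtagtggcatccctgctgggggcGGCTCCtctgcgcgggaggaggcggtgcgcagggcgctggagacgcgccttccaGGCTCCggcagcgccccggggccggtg

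The sequence GGAGCC occurred 2 times before the RefSeq start of Smad6, 3 times before that of Bmper and 1 time each before those of Bmp4 and Id3. It was not in the windows of Bmp5 and Bmp6. For Id3 and Bmp6 the RefSeq start and the window before it lie inside the gene span given above. Of all 32851 promoter windows of this length 26.0% hold it. GGCGCC, another such sequence, was searched on both strands too and was in none of the 6 windows, against 9.59% of all windows. These matches describe the letters and are not measured binding sites.

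The 4 ligands divided between stellate-like and endothelial-like cells. Levels below are UMIs summed over the cells of a class, as CPM of that sum, given for p16-LRTD first and p16-Alb-LRTD second, and a library ratio is p16-Alb-LRTD over p16-LRTD. Bmp5 stood at 951 and 849 CPM in stellate-like cells, 11.0 and 7.78 CPM in endothelial-like cells and 5.55 and 5.81 CPM in Kupffer-like cells. Bmp4 was likewise a stellate transcript, at 46.7 and 50.1 CPM there and at most 1.14 CPM in the other classes. Bmp6 showed the reverse, with 581 and 805 CPM in endothelial-like cells and 2.15 and 3.65 CPM in stellate-like cells. Bmp2 was measured in both, at 1409 and 2151 CPM in endothelial-like and 163 and 132 CPM in stellate-like cells, and stood at 7.23 and 7.38 CPM in Kupffer-like cells.

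**Figure D1:**
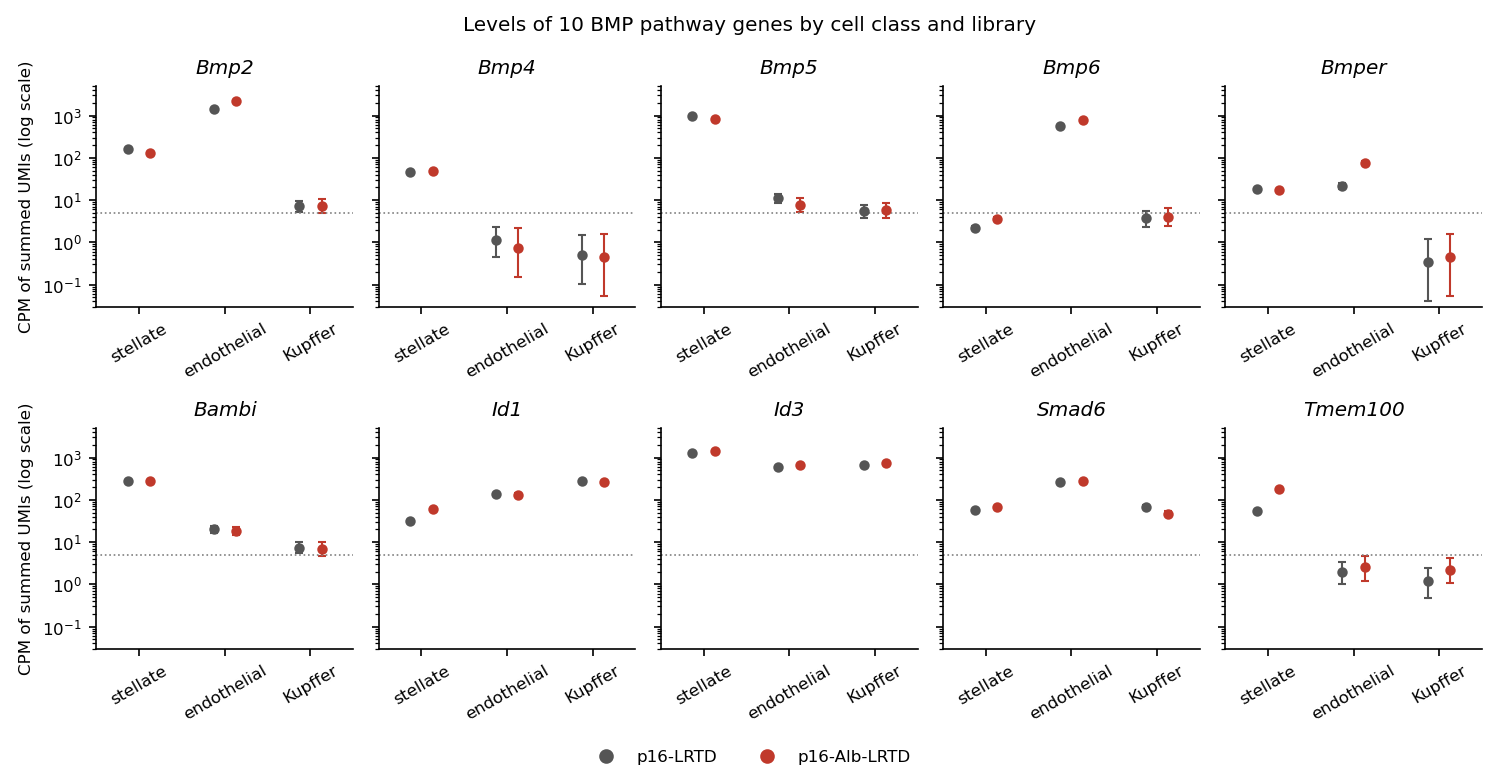
Levels of the 10 genes (CPM of summed UMIs, log scale) in stellate-like, endothelial-like and Kupffer-like cells, in p16-LRTD (grey) and p16-Alb-LRTD (red), with 95% Poisson intervals that are often smaller than the points; the dotted line marks 5 CPM. Bmp5, Bmp4, Bambi and Tmem100 are highest in stellate-like cells and Bmp6 and Bmp2 in endothelial-like cells, and the libraries stand apart most for Tmem100 in stellate-like and Bmper in endothelial-like cells.

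Free RNA in the droplets gives UMIs in cells that do not transcribe a gene, and marker genes of 1 class measured in another give its size. Of 8 endothelial markers, stellate-like cells held 0.106% to 2.69% of the endothelial level in p16-LRTD and 0.0966% to 3.97% in p16-Alb-LRTD. Bmp6 in stellate-like cells was above the marker medians of 0.209% and 0.247%, and at 0.369% and 0.454% of its endothelial level lay inside that range. Bmp2 did not: its stellate level was 11.6% and 6.14% of the endothelial level, above every one of the 8 markers in either library. Of 7 stellate markers, endothelial-like cells held 1.64% to 5.24% of the stellate level in p16-LRTD and 1.16% to 5.60% in p16-Alb-LRTD. Bmp5 in endothelial-like cells was below that range, at 1.16% and 0.916%, and Tmem100 was within it, at 3.62% and 1.40%. The endothelial UMIs of Bmp4, Bmp5 and Tmem100 are therefore not read as expression.

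Shares of cells gave the same division after every cell was thinned to 5000 UMIs, with Clopper-Pearson intervals. A Bmp5 UMI was found in 96.4% (95.9% to 96.8%) of stellate-like cells of p16-LRTD and 96.0% (95.5% to 96.5%) of those of p16-Alb-LRTD, against 3.35% and 3.18% of endothelial-like cells. Without thinning the stellate shares were 99.8% and 99.7%. A Bmp6 UMI was found in 78.9% (74.7% to 82.8%) and 84.8% (80.1% to 88.8%) of endothelial-like cells and in 1.03% and 1.60% of stellate-like cells. The thinning left out 16 and 7 stellate-like and 12 and 0 endothelial-like cells as too shallow.

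Among the modulators, Bambi, a membrane pseudoreceptor that dampens TGF-β family signals, was a stellate transcript at 284 and 281 CPM, with 20.1 and 18.6 CPM in endothelial-like and 7.40 and 6.93 CPM in Kupffer-like cells. Bmper, a secreted BMP-binding protein, was at 17.9 and 17.2 CPM in stellate-like cells and at 21.9 and 74.3 CPM in endothelial-like cells, with 2 UMIs in each library in Kupffer-like cells. The target genes were more widely spread. Id3, which encodes an inhibitor of basic helix-loop-helix factors, stood at 1249 and 1419 CPM in stellate-like, 582 and 675 CPM in endothelial-like and 651 and 742 CPM in Kupffer-like cells. Its relative Id1 was lowest in stellate-like cells, at 31.8 and 61.2 CPM in stellate-like, 134 and 133 CPM in endothelial-like and 272 and 266 CPM in Kupffer-like cells. Smad6 was highest in endothelial-like cells, at 266 and 283 CPM, against 58.8 and 67.9 CPM in stellate-like and 67.8 and 46.7 CPM in Kupffer-like cells. Tmem100, a membrane protein gene known in endothelium as induced by BMP9 and BMP10, was here measured in stellate-like cells, at 53.8 and 179 CPM, and stood at 1.95 and 2.51 CPM in endothelial-like and 1.18 and 2.24 CPM in Kupffer-like cells.

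Elimination of p16-high hepatocytes was compared with its control within stellate-like cells first. Tmem100 was higher in p16-Alb-LRTD, at 179 CPM against 53.8 CPM, a ratio of 3.32 (3.24 to 3.41). Id1 was also higher, at 61.2 CPM against 31.8 CPM, a ratio of 1.92 (1.85 to 1.99). The other 7 members measured above 5 CPM on average stayed within 1.5-fold. Bmp6 was below that minimum, at 2.15 and 3.65 CPM, a ratio of 1.70 (1.47 to 1.97), at a level inside the range of the free RNA markers. Thus 2 of 9 members were at least 1.5-fold higher, as were 3.03% of all 10179 genes above the minimum, and 0 were at least 1.5-fold lower, against 3.05% of all genes. The Id1 call was lost when cells were weighted alike over common terciles of the stress list, which stood at 6443 and 9912 CPM in these cells, and 1 of 9 members was then higher, Tmem100. The median log2 ratio of the 9 members was 0.10, and that of all genes was −0.05.

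**Figure D2:**
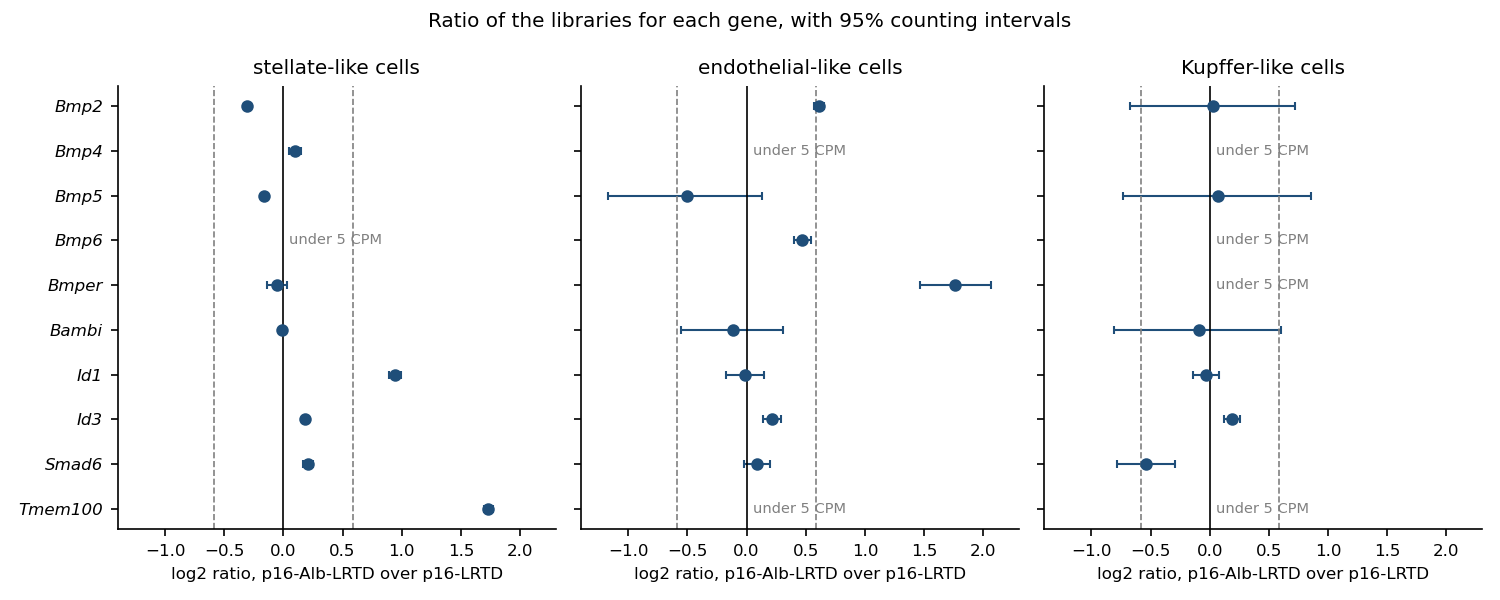
Log2 ratio of p16-Alb-LRTD over p16-LRTD for each gene in the 3 classes, with 95% counting intervals; dashed lines mark 1.5-fold and genes under 5 CPM on average are not drawn. Tmem100 and Id1 lie beyond the upper line in stellate-like cells, and Bmper and Bmp2 in endothelial-like cells, with Bmp2 just past it.

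Of the 10179 genes measured in stellate-like cells, 8 had a higher ratio than Tmem100. These were Ifi208, Zbtb16, Serpina3f, Ly6a, Cxcl9, Fkbp5, Serpina3g and Rsad2, named after their values had been seen. Id1 had 111 genes above it. After thinning to 5000 UMIs, a Tmem100 UMI was found in 20.4% (19.5% to 21.3%) of stellate-like cells of p16-LRTD and 50.1% (48.9% to 51.3%) of those of p16-Alb-LRTD, and in 0 of 418 and 5 of 283 endothelial-like cells, where the count of 0 allows a share of cells with a UMI at this depth of up to 0.879%. For Id1 the shares were 11.2% (10.5% to 11.9%) and 17.4% (16.5% to 18.3%). Both genes were thus detected in a larger share of cells in p16-Alb-LRTD and not in a few cells of high level alone. Without thinning the shares were 43.1% and 80.1% for Tmem100 in stellate-like cells, 1.16% and 3.18% for Tmem100 in endothelial-like cells, and 24.3% and 34.1% for Id1 in stellate-like cells.

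**Figure D3:**
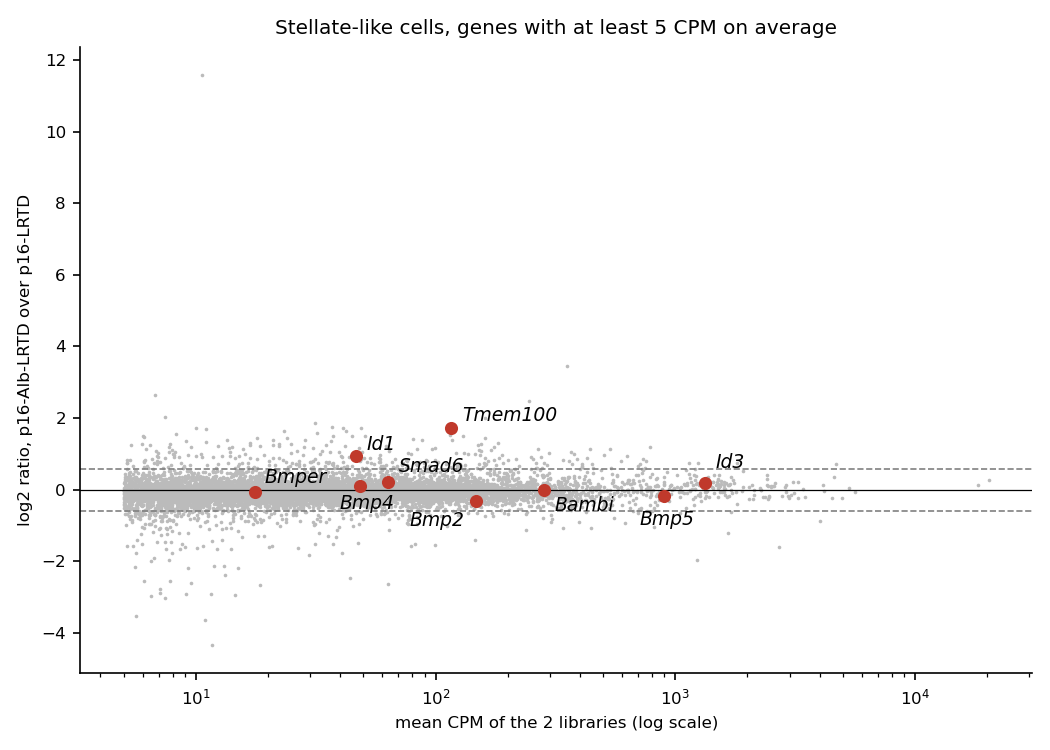
Log2 ratio of p16-Alb-LRTD over p16-LRTD against mean CPM (log scale) in stellate-like cells, with each grey point 1 of 10179 genes and the 9 members above 5 CPM in red; dashed lines mark 1.5-fold. Tmem100 at 1.73 and Id1 at 0.94 lie above the bulk of genes of like level, and the other members lie within it.

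Other markers moved with the libraries in stellate-like cells. The proliferation markers Mki67 and Top2a summed to 39.1 and 5.62 CPM (2 of 2 lower in p16-Alb-LRTD), 3 smooth muscle markers to 151 and 73.9 CPM (2 of 3 lower) and 4 portal fibroblast markers to 67.2 and 34.2 CPM (3 of 4 lower). Without cells that held a UMI of Mki67 or Top2a, the log2 ratios were 1.70 for Tmem100 and 1.02 for Id1. The part of the smooth muscle and portal fibroblast markers was not tested.

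The remaining stellate differences were small. Bmp2 was lower in p16-Alb-LRTD, with a log2 ratio of −0.30 (−0.33 to −0.28), and 12.0% of genes had a lower ratio. Bmp5 was at −0.16 (−0.18 to −0.15) and Bmp4 at 0.10 (0.05 to 0.15). Smad6 and Id3 were higher by 0.21 (0.16 to 0.25) and 0.18 (0.18 to 0.19) on the log2 scale, with 12.2% and 13.5% of genes above them. For Bambi and Bmper the interval of the log2 ratio included 0, from −0.03 to 0.01 and from −0.14 to 0.03. The counting intervals are narrow because 125115995 to 142651137 UMIs were summed, and a spread between mice of this size cannot be seen with 1 library per genotype.

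The target genes differed in how they moved with the dissociation stress list. When stellate-like cells of both libraries were divided at common cuts into terciles by the share of their UMIs in that list, Id1 stood at 21.0 and 21.7 CPM in the low tercile, 34.2 and 47.3 CPM in the middle tercile and 53.8 and 80.5 CPM in the high tercile. The libraries thus overlapped in the low tercile and stood apart in the other two. The list itself stood at 3350 and 3460 CPM in the low and 7583 and 7884 CPM in the middle tercile. In the high tercile it stood at 11440 and 12956 CPM, so the terciles did not make it equal. Id3 was lower in p16-Alb-LRTD in the low tercile, at 1029 and 874 CPM, and close in the middle and high terciles, at 1336 and 1314 CPM and at 1585 and 1645 CPM. With the terciles weighted alike in both libraries, the log2 ratio of Id1 was 0.46 in place of 0.94, below 1.5-fold, and that of Id3 was −0.04 in place of 0.18. Tmem100 kept its difference, with 49.9 and 179 CPM in the low, 55.0 and 174 CPM in the middle and 60.8 and 181 CPM in the high tercile and a weighted log2 ratio of 1.69. The high tercile held 1272 control cells and 3553 cells of the other library. Smad6 differed by a log2 ratio of 0.06 in the low and 0.24 in the high tercile.

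**Figure D4:**
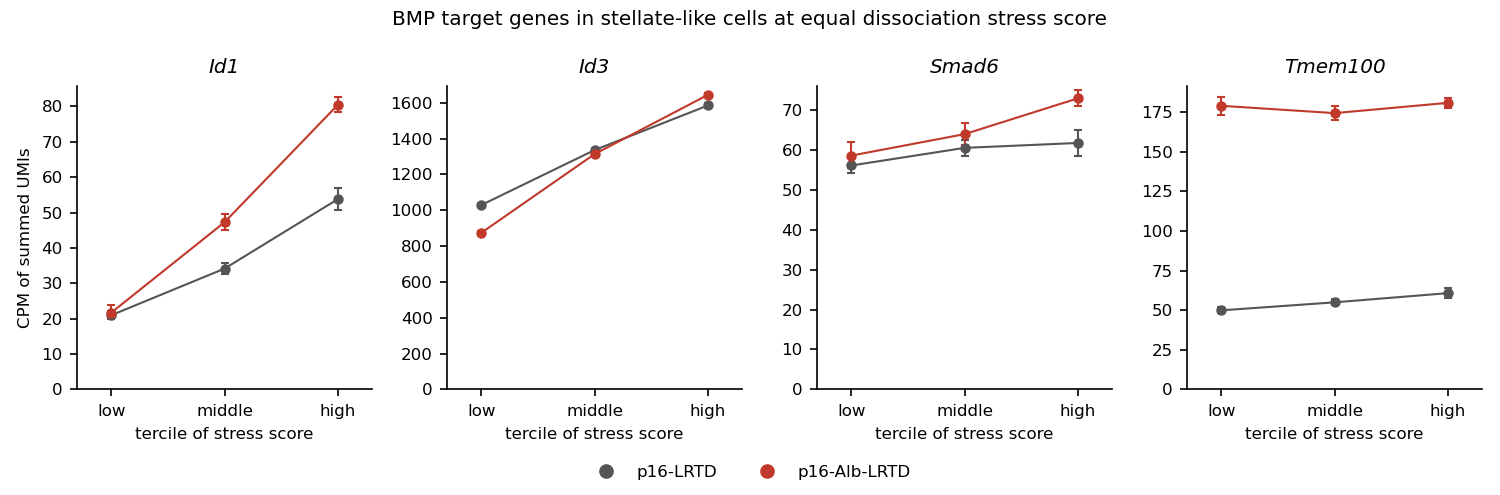
Levels of Id1, Id3, Smad6 and Tmem100 (CPM of summed UMIs) in stellate-like cells of p16-LRTD (grey) and p16-Alb-LRTD (red) by common terciles of the dissociation stress score, with 95% Poisson intervals. Id1 and Id3 are higher in each next tercile in both libraries, and Tmem100 is 174 to 181 CPM in the terciles of p16-Alb-LRTD and 49.9 to 60.8 CPM in those of p16-LRTD.

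Collagen expression, here the share of UMIs in Col1a1, Col1a2 and Col3a1, marks activated stellate cells, and the ligands ran against it within each library. From the low to the high collagen tercile, Bmp5 stood at 1137, 1010 and 769 CPM in p16-LRTD and at 938, 877 and 733 CPM in p16-Alb-LRTD. Bmp2 stood at 198, 182 and 121 CPM and at 152, 136 and 108 CPM. Bmper had a steeper course, with 27.8, 19.2 and 9.65 CPM in p16-LRTD and 24.0, 16.2 and 11.6 CPM in p16-Alb-LRTD. Bambi ran the other way, at 222, 285 and 327 CPM and at 241, 287 and 317 CPM. Tmem100 had no such course, at 61.2, 44.4 and 56.4 CPM in p16-LRTD and 175, 175 and 186 CPM in p16-Alb-LRTD, and its log2 ratio lay between 1.52 and 1.98 in the 3 terciles. The terciles were cut within each library, and their collagen levels differ between the libraries.

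Stellate-like cells were also split by UMIs of Ngfr, a marker of portal stellate cells, and Adamtsl2, a marker of central ones. Cells with UMIs of Ngfr alone numbered 2643 and 1517, and those of Adamtsl2 alone 1548 and 1848. The split also followed collagen, with Col1a1 at 194 and 161 CPM in the Ngfr cells and 4334 and 766 CPM in the Adamtsl2 cells. From the low to the high collagen tercile, Ngfr went from 284 to 69.1 CPM in p16-LRTD and from 170 to 81.6 CPM in p16-Alb-LRTD, and Adamtsl2 from 32.4 to 342 CPM and from 76.0 to 230 CPM. Position and collagen level therefore cannot be told apart here. Bmper was higher in the Ngfr cells, at 30.5 and 31.3 CPM against 6.94 and 8.63 CPM in the Adamtsl2 cells. Bambi and Smad6 were higher in the Adamtsl2 cells, Bambi at 367 and 363 CPM against 204 and 195 CPM and Smad6 at 74.9 and 83.7 CPM against 45.5 and 46.4 CPM. These orders were the same in both libraries. Bmp6, inside the range of the free RNA markers in stellate-like cells, stood at 3.58 and 6.33 CPM in the Ngfr cells. It stood at 1.45 and 1.46 CPM in the Adamtsl2 cells, and the source of these UMIs was not tested. Id1 differed between the libraries more in Adamtsl2 cells, at 24.0 and 57.8 CPM, a log2 ratio of 1.26 (1.14 to 1.39), than in Ngfr cells, at 38.5 and 54.1 CPM, a log2 ratio of 0.49 (0.39 to 0.59). Tmem100 differed in both, by log2 ratios of 1.74 and 1.46. The difference between these groups of cells was not tested. The Ngfr cells had a median of 14351 and 17912 UMIs and the Adamtsl2 cells 18870 and 16883, and with cells thinned to 5000 UMIs before assignment the Id1 log2 ratio was 1.37 in Adamtsl2 cells and 0.77 in Ngfr cells.

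Across single stellate-like cells the 10 genes had little in common. Over 7852 and 6621 cells, which share a library and vary in depth, the highest Pearson correlation of log-normalised values between members was that of Id1 with Id3, at 0.16 and 0.18, and the lowest that of Bmper with Bambi, at −0.16 and −0.18. Among 3541 other genes at 50 CPM or more, those most like Bmp5 included Ank3 at 0.52 and 0.47 and Rbms3 at 0.50 and 0.40. For Id3 they were the stress list genes Junb at 0.33 and 0.44 and Fos at 0.29 and 0.44, with Zfp36 at 0.31 and 0.37. Bambi was most like Apoe, Eef1a1 and Fau (0.31 to 0.39), Bmper like Lsamp, Clstn2 and Cald1 (0.22 to 0.24), Bmp2 like Sod3 and Ccl2 (0.21 to 0.28) and Tmem100 like Npr3, a natriuretic peptide receptor gene, at 0.20 and 0.21. For Bmp4, Bmp6, Id1 and Smad6 no gene reached 0.2 in both libraries.

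In endothelial-like cells Bmper and Bmp2 were higher in p16-Alb-LRTD. Bmper stood at 21.9 CPM (18.4 to 26.0) against 74.3 CPM (66.1 to 83.3) in p16-LRTD and p16-Alb-LRTD, from 135 and 296 UMIs, a ratio of 3.39 (2.75 to 4.18), and 40 of 9858 genes had a higher one. Bmp2 stood at 1409 and 2151 CPM, a ratio of 1.53 (1.48 to 1.57), so that its interval reached below the 1.5-fold limit. Bmp6, at 581 and 805 CPM, had a ratio of 1.39 (1.32 to 1.45). Thus 2 of 8 members above the minimum were at least 1.5-fold higher, against 6.44% of all genes, and 0 were at least 1.5-fold lower, against 13.5%. The 8 include Bmp5, whose endothelial UMIs were not read as expression, and without it 2 of 7 were higher and 0 lower. Bambi, kept among the 7, was at 7.10% and 6.60% of its stellate level, above the stellate markers, which reached 5.24% and 5.60%. Its interval in p16-Alb-LRTD, from 5.18% to 8.29%, reached into their range. The median log2 ratio was 0.15 over the 8 members, 0.21 over the 7 and −0.10 over all genes.

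Bmper UMIs were found in 9.57% (6.92% to 12.8%) and 21.9% (17.2% to 27.2%) of endothelial-like cells thinned to 5000 UMIs, and in 18.1% and 38.5% of them without thinning. The stellate shares at the same depth were 8.09% and 7.03%, so the p16-LRTD share was close to that of stellate-like cells, which hold Bmper at a like level. Bmp2 was found in 93.8% (91.0% to 95.9%) and 98.2% (95.9% to 99.4%) of endothelial-like cells. The target genes showed smaller differences in these cells. Id3 had a log2 ratio of 0.21 (0.14 to 0.29), and the intervals of Smad6, from −0.02 to 0.20, and Id1, from −0.18 to 0.14, included 0. The Id1 ratio was thus 0.94 on the log2 scale in stellate-like and −0.02 in endothelial-like cells, a difference that was not tested over mice.

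The endothelial-like cells of the libraries differed in markers of zone. Cells with UMIs of the portal markers Efnb2 or Dll4 and none of the central markers Wnt2 or Kit numbered 109 in p16-LRTD and 29 in p16-Alb-LRTD, cells with only the central markers 53 and 56, and cells with both 263 and 196. Bmper was higher in p16-Alb-LRTD in each of these, at 39.6 and 113 CPM, 16.9 and 47.1 CPM and 18.4 and 77.3 CPM in that order. Bmp2 stood at 1239 and 1270 CPM in the portal cells, at 1254 and 1884 CPM in the central cells and at 1470 and 2306 CPM in cells with both. Bmp6 differed in direction, at 616 and 364 CPM in the portal cells and 374 and 767 CPM in the central cells. In p16-LRTD 1 collagen-rich cell stood among the central cells and 3 among those with both, and Col1a1 was at 1531 and 7.60 CPM in the central cells of the libraries. Without cells that held at least 10 UMIs of the 3 collagens per 10000, a limit chosen after the data had been seen, the central cells held Bmp2 at 1320 and 1884 CPM, Bmp6 at 393 and 767 CPM and Bmper at 14.7 and 47.1 CPM. With all cells kept and the zones weighted alike, the log2 ratio of Bmp2 was 0.53, under 1.5-fold, and that of Bmper 1.82. Only 5 and 2 cells had none of the 4 markers.

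The zone markers stood at 87.4 to 341 CPM in endothelial-like cells and at most 6.65 CPM in the other classes. The groups also sorted cells by depth, with a median of 9206 and 8808 UMIs in the portal cells, 11254 and 11757 in the central cells and 14762 and 13113 in cells with both. With every cell thinned to 5000 UMIs before it was assigned, a step added after the data had been seen, portal cells were 34.4% and 17.3%, central cells 22.0% and 36.4% and cells with both 35.9% and 41.7% of endothelial-like cells. The markers thus differed between the libraries at equal depth as well. In the portal cells so assigned, Bmp2 stood at 1309 and 1762 CPM, a log2 ratio of 0.43 (0.32 to 0.54) in place of 0.04, and Bmp6 at 662 and 539 CPM, a log2 ratio of −0.30 (−0.48 to −0.12) in place of −0.76. The near equality of Bmp2 in portal cells therefore depended on the assignment, while Bmp6 stayed lower there. Bmper kept log2 ratios of 1.42, 2.20 and 2.10 in the portal cells, the central cells and those with both.

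**Figure D5:**
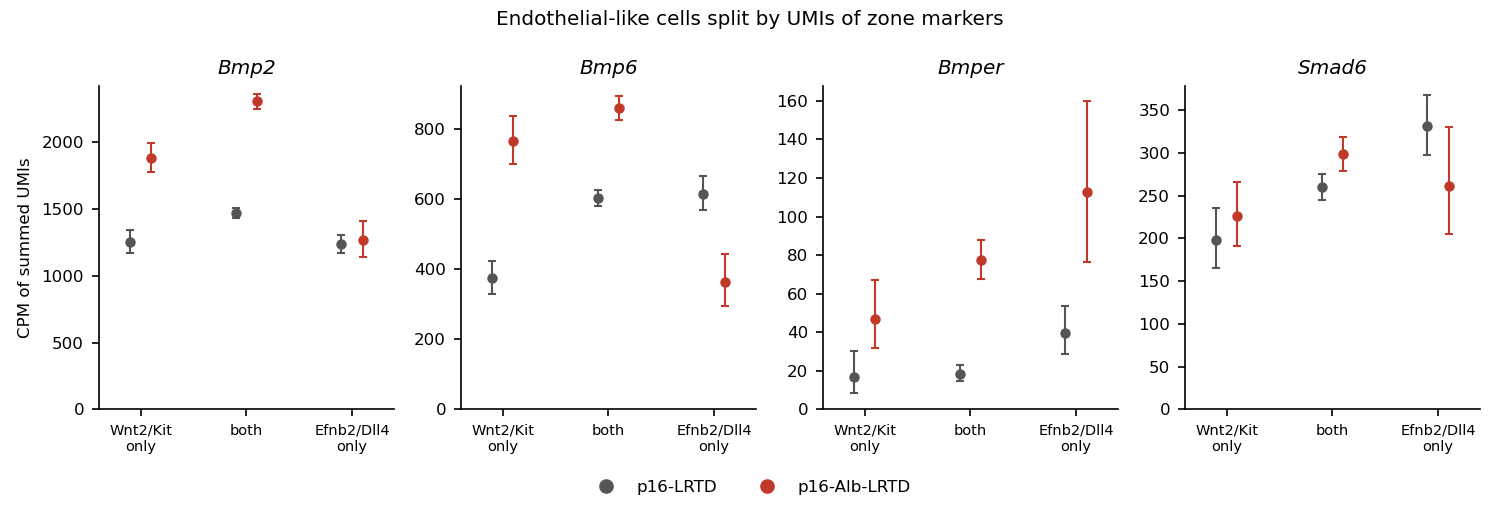
Levels of Bmp2, Bmp6, Bmper and Smad6 (CPM of summed UMIs) in endothelial-like cells with UMIs of Wnt2 or Kit only, of both marker pairs, or of Efnb2 or Dll4 only, in p16-LRTD (grey) and p16-Alb-LRTD (red), with 95% Poisson intervals. Bmper is higher in p16-Alb-LRTD in all 3 groups of cells, and Bmp6 is lower there in the Efnb2 or Dll4 group, which holds 29 cells.

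Within common terciles of the stress list, Bmper stood at 21.7 and 64.7 CPM in the low tercile, 26.9 and 61.5 CPM in the middle and 7.11 and 81.3 CPM in the high tercile. Bmp2 had log2 ratios of 0.28, 0.62 and 0.85 in the low, middle and high terciles, and so passed 1.5-fold in the middle and high ones alone. Id1 had a log2 ratio of −0.65 (−1.14 to −0.19) in the low, −0.53 (−0.88 to −0.19) in the middle and 0.04 (−0.25 to 0.34) in the high tercile. The terciles held 192, 176 and 62 cells of p16-LRTD and 46, 61 and 176 of p16-Alb-LRTD. The stress list stood at 1249 and 980 CPM in the low and 3588 and 4181 CPM in the middle tercile. In the high tercile it stood at 7363 and 7325 CPM. The summed collagen level of endothelial-like cells was 634 and 41.7 CPM, and with 4 collagen-rich cells of p16-LRTD left out the log2 ratios were 1.78 for Bmper and 0.59 for Bmp2. Lymphocyte markers summed to 9.10 CPM in endothelial-like cells of p16-LRTD, and 5 of 5 were at 0 in p16-Alb-LRTD. The proliferation markers Mki67 and Top2a summed to 28.6 and 2.26 CPM, and without cells that held a UMI of either the log2 ratios were 1.70 for Bmper and 0.59 for Bmp2. The part of the lymphocyte markers in the ratios was not tested. Markers of infiltrating macrophages ran the other way, with Spp1 at 15.4 and 64.5 CPM, Ly6c2 at 0 and 7.28 CPM (0 and 29 UMIs) and Ccr2 at 1 UMI in each library. Without the 28 and 28 cells that held a UMI of any of these 3 genes, the log2 ratios were 1.71 (1.40 to 2.02) for Bmper and 0.64 (0.60 to 0.69) for Bmp2.

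In Kupffer-like cells no member passed 1.5-fold when all cells of the class were summed. Of 6 members above the minimum, 0 were at least 1.5-fold higher, against 5.21% of 9514 genes, and 0 were at least 1.5-fold lower, against 6.83%. Smad6 came closest, at 67.8 CPM (61.3 to 74.7) and 46.7 CPM (40.6 to 53.5), a ratio of 0.689 (0.580 to 0.817). Within common terciles of the stress list its log2 ratio was −1.16 (−1.78 to −0.60) in the low, −0.60 (−1.04 to −0.16) in the middle and −0.18 (−0.59 to 0.24) in the high tercile, and with the terciles weighted alike it was −0.60, past 1.5-fold lower. Id1, at 272 and 266 CPM, had a log2 ratio of −0.03 (−0.14 to 0.08), with 0.32 (0.03 to 0.61) in the low, −0.29 (−0.47 to −0.12) in the middle and −0.66 (−0.82 to −0.50) in the high tercile. These terciles held 114, 87 and 82 cells of p16-LRTD and 40, 66 and 72 of p16-Alb-LRTD. The stress list stood at 2104 and 2418 CPM in the low and 4055 and 4147 CPM in the middle tercile. In the high tercile it stood at 6474 and 6796 CPM. Id3, at 651 and 742 CPM, had a log2 ratio of 0.19 (0.12 to 0.26), but −0.21 (−0.37 to −0.04), 0.10 (−0.02 to 0.21) and −0.03 (−0.14 to 0.07) in the low, middle and high terciles and −0.03 with these weighted alike, so that its direction was not kept. Other markers moved with the libraries in these cells. The macrophage markers Ly6c2, Ccr2 and Spp1 summed to 322 and 148 CPM, nearly all of it Spp1 at 313 and 141 CPM, while 8 of 8 Kupffer markers outside the rule were higher in p16-Alb-LRTD, with a sum of 12219 and 15347 CPM. The collagens summed to 147 and 38.9 CPM, and without collagen-rich cells the Smad6 log2 ratio was −0.54. The part of the macrophage and Kupffer markers in the Kupffer-like ratios was not tested.

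The other 3 of the 6 rested on 26 to 44 UMIs per library. Bmp5 was at 0.583% and 0.684% of its stellate level and Bambi at 2.61% and 2.46%, where 7 stellate markers ranged from 1.19% to 3.67% and from 0.818% to 2.13% in Kupffer-like cells. The Bambi value of p16-Alb-LRTD lay just above that range, and its interval, from 1.67% to 3.50%, reached into it. Bmp2 was at 0.513% and 0.343% of its endothelial level, where 8 endothelial markers had medians of 0.912% and 0.436%. Those markers ranged from 0.0710% to 36.9% and from 0.0841% to 57.7%. Against its stellate level Bmp2 was at 4.44% and 5.59%, above all 7 stellate markers. The UMIs of Bmp5 and Bambi are not read as expression, and the source of the Bmp2 UMIs was not tested. Without these 3 members 0 of 3 were higher and 0 lower.

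Of 51 other genes of the pathway, 26 were above the minimum in stellate-like cells, with 1 at least 1.5-fold higher and 0 lower in p16-Alb-LRTD, against 3.03% and 3.05% of all genes. That gene was Acvr2a, a type II receptor, at 208 and 319 CPM, a ratio of 1.53 (1.51 to 1.56), and it was at 60.1 and 86.6 CPM in endothelial-like cells. The ligand genes of the stellate cells were all within 1.5-fold, with Gdf2 at 371 and 460 CPM, Bmp10 at 111 and 160 CPM and Gdf6 at 58.3 and 46.4 CPM. Id2, a relative of Id1 and Id3, was at 132 and 118 CPM, with a log2 ratio of −0.16. Smad7, another inhibitory Smad, was at 192 and 206 CPM. The median log2 ratio of the 26 genes was −0.01.

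In endothelial-like cells 19 of the 51 were above the minimum, with 0 higher and 2 lower, against 6.44% and 13.5% of all genes. Id2 was at 220 and 139 CPM, and Fstl1, a secreted glycoprotein of the follistatin family, at 17.5 and 7.53 CPM. The endothelial level of Fstl1 was 4.25% and 2.53% of its stellate level, within the range of the stellate markers there, and is not read as expression, which leaves Id2 as the lower gene. Bmpr2, the main type II receptor of BMPs, stood at 693 and 937 CPM and Eng, a co-receptor, at 1190 and 1122 CPM. In Kupffer-like cells 20 were above the minimum, with 0 higher and 1 lower, against 5.21% and 6.83% of all genes. The lower gene was Hey1, which encodes a transcriptional repressor, at 24.6 and 11.0 CPM.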

How the data were processed

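The values deposited by the authors are raw counts of UMIs for every gene in every barcode, from CellRanger 7.0.1 (named in the submitters' processing notes as well) on mm10 from 10x 3' v3.1 libraries of 2 HSC preparations, with 193746596 UMIs in 11149 barcodes of p16-LRTD and 162219167 in 8806 of p16-Alb-LRTD. From these counts, barcodes with a mitochondrial share up to 5%, 2000 to 7000 genes and at most 50000 UMIs were kept (9004 and 7416), after the methods of the study.

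Classes were set by summed UMIs per 10000: Lrat, Ecm1, Hgf and Reln at 15 or more (stellate-like), Kdr, Stab2 and Ptprb at 8 or more (endothelial-like), Clec4f, Cd5l, Vsig4 and Csf1r at 8 or more (Kupffer-like). Barcodes of several classes (245 and 221) or of none (194 and 113) were left out. No doublet caller was run here, and doublets were limited by the upper limits and by that exclusion.

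Counts were summed per class and library and given as CPM with exact Poisson intervals, ratios with exact conditional intervals and shares with Clopper-Pearson intervals (SciPy 1.17.1, NumPy 2.4.6, pandas 2.3.3). No test was possible with 1 library per genotype. A gene was counted at 1.5-fold or more with at least 5 CPM on average over the libraries. Counts were also simulated from the Poisson model that the intervals assume, with no spread between cells, mice or preparations. On these the ratio intervals contained the true ratio for 95.2% of 10189 stellate, 95.9% of 9899 endothelial and 95.4% of 9511 Kupffer genes. That checks the computation of the intervals only.

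All 10 members are named, pathway genes where past 1.5-fold (others of the list after their values were seen), and per member up to 3 genes with a Pearson correlation of at least 0.2 in each library among genes at 50 CPM or more. The members and lists were chosen with earlier results of these data known. The alternatives were other cell filters, marker cuts, scalings and thinning to 3000 UMIs. The common stress terciles, the zone weights, the thinned zone assignment and the collagen and macrophage marker limits were chosen after seeing the data. Some genes are not reported here, and the macrophage markers are given without one. Counting at the 3' end does not separate isoforms.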

Additional observations from a re-analysis of the deposited data

Results flagged for a closer look

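Bmp2 had a log2 ratio of 0.61 in endothelial-like cells and −0.30 in stellate-like cells, opposite directions of p16-Alb-LRTD over p16-LRTD in the 2 classes, and this difference was not tested. Smad6 likewise had a log2 ratio of 0.21 in stellate-like and −0.54 in Kupffer-like cells, and this difference was not tested. Tmem100 stood at 72.1 CPM (64.4 to 80.4) in the 194 barcodes of p16-LRTD that met no class rule, above its 53.8 CPM in stellate-like cells of that library. In p16-Alb-LRTD the 113 barcodes of no class held 55.9 CPM, below the 179 CPM of stellate-like cells. The barcodes of no class also held mesothelial markers (Msln, Upk3b and Wt1) at 554 and 348 CPM, with 1 of 3 higher in p16-Alb-LRTD. Hepatocyte markers stood at 2133 and 1383 CPM, with 1 of 7 higher, and collagens at 11677 and 8849 CPM. Stellate markers outside the rule stood at 7517 and 5891 CPM, portal fibroblast markers at 187 and 121 CPM and smooth muscle markers at 28.4 and 4.13 CPM. Each of these sums was lower in p16-Alb-LRTD, as Tmem100 was. Other markers there were higher in p16-Alb-LRTD, with Ly6c2, Ccr2 and Spp1 summing to 1613 and 1874 CPM, lymphocyte markers to 31.3 and 96.4 CPM and Mki67 and Top2a to 16.6 and 64.5 CPM, and the part of these cells in the Tmem100 level was not tested.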

How the results depend on the processing

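No paired analysis was possible because there was only 1 library of either genotype. Of 333 log2 ratios recomputed under the alternatives, 261 stayed inside their counting interval and 72 moved out of it. Only results past 1.5-fold as first computed could be counted as reversed, and 0 were. The 39 changes of sign fell on 13 results that were within 1.5-fold as first computed. Among these, Bmp5 in Kupffer-like cells went from 0.07 to −1.17 with barcodes of several classes kept. The Tmem100 log2 ratio in stellate-like cells ranged from 1.69 to 1.78 and that of Bmper in endothelial-like cells from 1.47 to 2.21, so both stayed past 1.5-fold in every alternative. Id1 in stellate-like cells ranged from 0.46 with common stress terciles to 1.02 without cells with a Mki67 or Top2a UMI, and with common stress terciles 1 stellate member was higher in place of 2, against 3 with no expression minimum (Bmp6 added) or with barcodes of several classes kept. Bmp2 in endothelial-like cells ranged from 0.33 with barcodes of several classes kept, under 1.5-fold, to 0.71, and 1 endothelial member was higher in place of 2 with the mean of single-cell CPM or with zone strata weighted alike. The number of lower endothelial members was 1 in place of 0, Bmp5 save with no expression minimum, with no upper limits, doubled marker cuts, the mean of single-cell CPM, no barcodes found in both libraries, no expression minimum, common stress terciles, zone strata and no cells with macrophage marker UMIs. In Kupffer-like cells 2 members were higher and 3 lower in place of 0 with barcodes of several classes kept, 1 higher with doubled cuts or no expression minimum, and 1 lower (Smad6) with a mitochondrial limit of 10%, doubled cuts or common stress terciles. The share of all genes past 1.5-fold was not computed under the alternatives. The counts of members given for them, in all 3 classes, are therefore not read as results about the members. Thinned to 3000 UMIs, the stellate shares were 14.5% and 37.0% for Tmem100 and 7.34% and 11.9% for Id1, and the p16-LRTD endothelial shares were 89.1% for Bmp2 and 6.74% for Bmper. Thinner counts lower the shares by construction, and the other causes were not tested. The Kupffer-like and endothelial-like values rest on 178 to 430 cells per library, and 1 UMI is worth 0.162 to 0.251 CPM there.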
